A study of Homo sapiens with 4 samples.

Results

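A set of 10 genes of the luminal urothelium was followed in 2 human bladder cancer cell lines, SW780 and UMUC3, in which the stearoyl-CoA desaturase SCD1 (gene symbol SCD) had been knocked down. They were 4 uroplakins (UPK1A, UPK1B, UPK2 and UPK3A), the uroplakin-binding sorting nexin SNX31, and 5 transcription factors of luminal differentiation (GATA3, FOXA1, GRHL3, ELF3 and KLF5). They were taken by name from a list of 10, among 32485 genes in either line's table. All 10 were in the SW780 table of 17752 genes, UPK3A by its Ensembl identifier, and 8 were in the UMUC3 table of 30148 genes, 5 of them by identifier. UPK3A and ELF3 were not analysed in UMUC3. By RNA sequencing, the groups were SW780 with SCD1 knocked down by lentivirus (shSCD1), SW780 labelled shNT with the genotype WT, UMUC3 shSCD1, and UMUC3 shNT. Each group was 1 library from cells cultured in medium with serum. How many hairpins, clones or cultures stood behind a library, and which promoter drove the hairpin, is not given in the sources used here.

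Uroplakins are membrane proteins that assemble into rigid plaques on the apical surface of umbrella cells, the outermost cells of the bladder lining, where they form part of the barrier to urine. The tetraspanins UPK1A and UPK1B each pair with a partner that has a single membrane span, UPK1A with UPK2 and UPK1B with UPK3A, and pairing helps them leave the endoplasmic reticulum. SNX31 was found in mouse umbrella cells on the vesicles that carry uroplakins to degradation. GATA3 and FOXA1 drive luminal gene expression together with the nuclear receptor PPARG in human bladder cancer cells. KLF5 in the mouse is needed for the urothelium to mature, GRHL3 in the mouse for umbrella cells to differentiate, and ELF3 is an ETS-family factor of human urothelial differentiation.

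In SW780 the luminal genes were expressed, and every one with enough reads stood lower in the shSCD1 library. SNX31 was 7.88-fold lower, GRHL3 2.67-fold and UPK1A 2.51-fold, while GATA3 and KLF5 were 1.17-fold and 1.20-fold lower. In UMUC3 UPK1A, UPK1B, UPK2, SNX31 and GRHL3 were at or near 0 reads in both libraries. GATA3, FOXA1 and KLF5 were at a low counts-per-million level there (CPM, reads of a gene relative to the reads of all genes of the line's table). SCD itself stood at 92.1 CPM in SW780 shSCD1 and 592 CPM in SW780 shNT, and at 59.6 CPM in UMUC3 shSCD1 and 264 CPM in UMUC3 shNT.

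Totals were 25549737 reads in SW780 shSCD1, 34087871 in SW780 shNT, 32540576 in UMUC3 shSCD1 and 22818368 in UMUC3 shNT, counted over the genes of each table. Table headers call the libraries only first and second. The second was read as shSCD1, since each table bears that name and its fold changes are second over first; with the columns the other way round every direction below would turn. The only check of that reading is SCD, which is lower in the second library of both tables. With 1 library a group there was no replicate check and no test within a line. The 95% intervals cover counting error only. In such bulk RNA, fewer cells of a kind and less RNA per cell cannot be told apart.

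Promoter windows from RefSeq (build GRCh38.p14) show the start regions of the uroplakin and the factor with the lowest ratios of their groups, UPK1A and GRHL3, beside UPK1B, the uroplakin with the most reads. Each runs from 250 bases before to 50 bases after the gene start, on the plus strand, at chr19:35666267-35666566 for UPK1A, chr1:24319107-24319406 for GRHL3 and chr3:119173348-119173647 for UPK1B. That start is the one of the window's source and can differ from the GENCODE gene start given further below. Motif distances are counted from the window's start of the gene. Capitals mark matches to 5 motifs searched on both strands, and no match overlapped another in these windows. For GATA factors the letters were AGATAA. For forkhead factors of the FOXA group they were TGTTTAC. For grainyhead-like factors they were AACCNGTT. For ETS factors they were CCGGAAG. For KLF factors they were CCACCC.
UPK1A: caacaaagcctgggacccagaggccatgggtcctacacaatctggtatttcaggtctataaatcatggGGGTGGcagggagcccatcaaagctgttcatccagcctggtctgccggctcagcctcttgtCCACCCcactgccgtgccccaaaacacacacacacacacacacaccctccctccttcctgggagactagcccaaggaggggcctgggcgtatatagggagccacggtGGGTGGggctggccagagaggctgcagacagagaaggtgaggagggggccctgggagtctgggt
GRHL3: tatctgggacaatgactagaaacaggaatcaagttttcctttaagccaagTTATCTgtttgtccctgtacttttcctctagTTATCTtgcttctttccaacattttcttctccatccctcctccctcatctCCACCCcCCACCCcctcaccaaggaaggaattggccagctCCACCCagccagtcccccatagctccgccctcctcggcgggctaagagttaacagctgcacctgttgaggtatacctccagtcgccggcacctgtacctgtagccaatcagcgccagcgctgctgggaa
UPK1B: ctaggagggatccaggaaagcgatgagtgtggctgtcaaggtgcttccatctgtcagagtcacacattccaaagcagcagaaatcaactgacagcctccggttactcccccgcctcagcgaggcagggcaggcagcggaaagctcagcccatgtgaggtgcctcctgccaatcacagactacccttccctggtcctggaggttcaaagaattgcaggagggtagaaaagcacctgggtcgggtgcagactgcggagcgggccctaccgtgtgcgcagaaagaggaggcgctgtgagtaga

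The UPK1A window held the KLF motif 3 times, starting 182, 121 and 14 bases before the gene start. The GRHL3 window held it 3 times, at 119, 112 and 79 bases, and the GATA motif 2 times, at 200 and 169 bases, both on the minus strand. The UPK1B window held none of the 5 motifs. Windows were found for 7 members, 14 windows in all because GATA3, GRHL3 and KLF5 have several starts; UPK2, UPK3A and SNX31 had none. The KLF motif was in 8 of the 14 member windows (5 of GATA3, 2 of GRHL3 and 1 of UPK1A) and in 34.3% of all 35116 windows. The GATA motif was in 1 of the 14, the GRHL3 window shown, and in 10.3% of all windows, and the ETS motif in 1 of the 14, a GATA3 window, and in 10.3% of all windows. The FOXA and grainyhead-like motifs were in no member window, and in 3.42% and 1.73% of all. A match of letters is a description of the window and not a binding site.

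UPK1A (ENSG00000105668), the tetraspanin that pairs with UPK2, had 370 reads or 14.5 CPM in SW780 shSCD1 and 1240 reads or 36.4 CPM in SW780 shNT. That was 2.51-fold lower (95% interval 2.23 to 2.83), a log2 ratio of −1.27 on the scale of CPM plus 1, which understates the change of weakly expressed genes and is used for all log2 ratios here. Of the 12880 genes kept in SW780, 78 had a lower ratio. UPK1A shares 18.9% of its exonic bases with the antisense gene UPK1A-AS1, and since it is not given whether strand was used, their reads cannot be told apart.

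UPK1B (ENSG00000114638), the tetraspanin that pairs with UPK3A, had 3305 reads or 129 CPM in SW780 shSCD1 and 6857 reads or 201 CPM in SW780 shNT, 1.56-fold lower (1.49 to 1.62; log2 ratio −0.63). UPK2 (ENSG00000110375), the partner of UPK1A, had 500 reads or 19.6 CPM in SW780 shSCD1 and 1103 reads or 32.4 CPM in SW780 shNT, 1.65-fold lower (1.49 to 1.84; log2 ratio −0.70). UPK3A (ENSG00000100373) had 2 reads in SW780 shSCD1 and 8 in SW780 shNT, or 0.0783 CPM in SW780 shSCD1 and 0.235 CPM in SW780 shNT. At that depth a difference was not detectable, with a level 3.00-fold lower and an interval from 0.598 to 28.98. Both tetraspanins and UPK2 were thus lower in shSCD1 by more than counting error, with UPK1A apart from the others. UPK3A, a partner of UPK1B, was barely detected in either SW780 library. UPK3B, which can also pair with UPK1B, stood at 91.6 CPM in SW780 shSCD1 and 93.3 CPM in SW780 shNT.

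Summed over the 4 uroplakins, SW780 shSCD1 held 163 CPM and SW780 shNT 270 CPM, 1.65-fold lower (1.59 to 1.71). UPK1B made up 79.1% of the sum in SW780 shSCD1 and 74.5% in SW780 shNT, and UPK1A made up 8.86% in SW780 shSCD1 and 13.5% in SW780 shNT. UPK2 held the same share in both, 12.0%. Per length (RPKM, CPM per kilobase of merged exon), UPK1A stood at 0.599 of the UPK2 level in SW780 shSCD1 and at 0.910 of it in SW780 shNT, so these partners came out further apart in shSCD1. UPK1B stood at 5.38 times the UPK1A level in SW780 shSCD1 and at 3.33 times in SW780 shNT.

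SNX31 (ENSG00000174226), the sorting nexin, had 183 reads or 7.16 CPM in SW780 shSCD1 and 1923 reads or 56.4 CPM in SW780 shNT. It was 7.88-fold lower (6.76 to 9.22), with a log2 ratio of −2.81, the widest gap between the libraries among the members. Among all genes kept in SW780, 6 had a lower ratio, and SCD, the targeted gene, was at −2.67. None of its exonic bases lies in another gene. The ratio kept its sign and its size of at least 2-fold under all 10 alternatives tried, between −2.97 and −2.34.

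**Figure D1:**
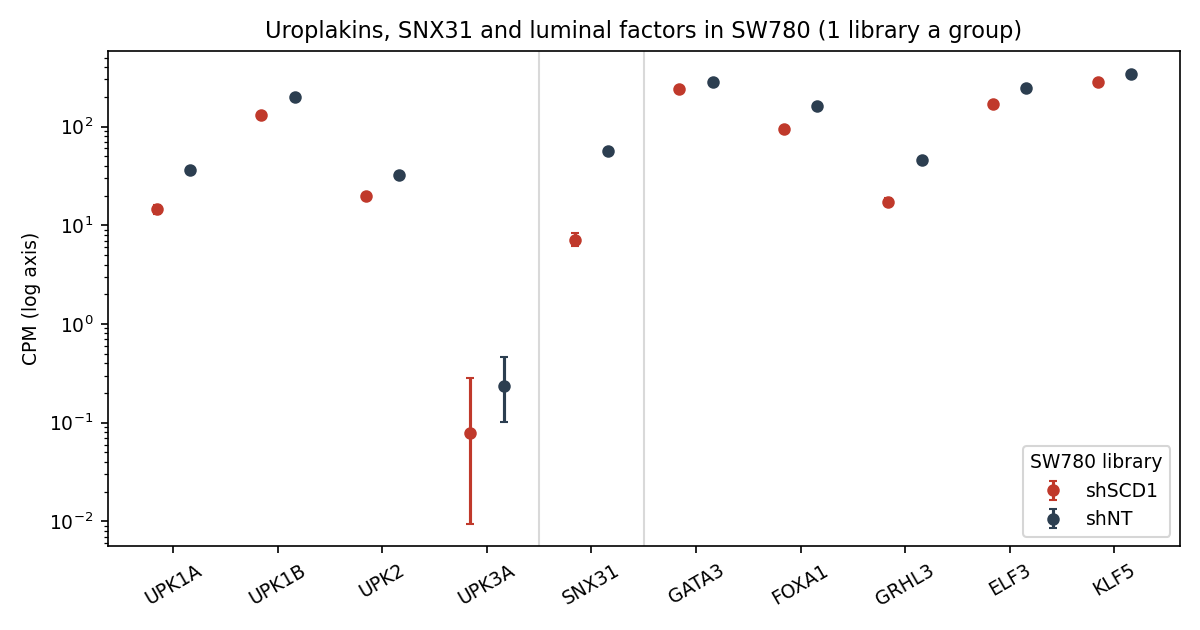
CPM of the 10 genes in SW780 shSCD1 (red, left) and SW780 shNT (dark, right) on a log axis, 1 library each; bars are exact Poisson 95% intervals and are smaller than most points. SNX31 shows the widest gap, 7.16 CPM in shSCD1 against 56.4 CPM in shNT, and UPK3A lies below 1 CPM in both libraries.

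GRHL3 (ENSG00000158055), the grainyhead-like factor, was the factor with the lowest ratio in SW780. It had 438 reads or 17.1 CPM in SW780 shSCD1 and 1563 reads or 45.9 CPM in SW780 shNT, 2.67-fold lower (2.40 to 2.98; log2 ratio −1.37). FOXA1 (ENSG00000129514), a forkhead pioneer factor, had 2437 reads in SW780 shSCD1 and 5533 in SW780 shNT, which is 95.4 CPM in SW780 shSCD1 and 162 CPM in SW780 shNT, 1.70-fold lower (1.62 to 1.79; log2 ratio −0.76). ELF3 (ENSG00000163435), the ETS factor, had 4308 reads in SW780 shSCD1 and 8411 in SW780 shNT, which is 169 CPM in SW780 shSCD1 and 247 CPM in SW780 shNT, 1.46-fold lower (1.41 to 1.52; log2 ratio −0.55). ELF3 shares 18.5% of its exonic bases with ELF3-AS1 and another gene, and how many of its reads come from them cannot be told.

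GATA3 (ENSG00000107485) and KLF5 (ENSG00000102554), the factors with the most reads, had the ratios nearest 0 among the 9 members kept. GATA3, with 6093 reads in SW780 shSCD1 and 9537 in SW780 shNT, had 238 CPM in SW780 shSCD1 and 280 CPM in SW780 shNT, 1.17-fold lower (1.14 to 1.21; log2 ratio −0.23). KLF5, with 7248 reads in SW780 shSCD1 and 11597 in SW780 shNT, had 284 CPM in SW780 shSCD1 and 340 CPM in SW780 shNT, 1.20-fold lower (1.16 to 1.24; log2 ratio −0.26). Their intervals do not reach those of ELF3, FOXA1 or GRHL3. Summed over the 5 factors the level was 803 CPM in SW780 shSCD1 and 1075 CPM in SW780 shNT, 1.34-fold lower (1.32 to 1.36).

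A size rule asked for 1 CPM or more in 1 of the libraries and a log2 ratio of −1 or below, or of 1 or above. By it 3 of 9 members kept in SW780 were lower (UPK1A, SNX31 and GRHL3), where 1.06% of all 12880 genes kept were lower, and none was higher, where 1.48% were. All 9 had a ratio below 0, as had 51.5% of all genes kept. Their median log2 ratio was −0.70, and that of all genes kept −0.0079. UPK3A was not kept. The members that passed this rule did so on 1 pair of libraries, and the list was drawn up with earlier results of these data known, so these counts describe the libraries alone. In the authors' deposited table the GFOLD value, a log2 fold change shrunk towards 0 for counting error, was below 0 for all 9, as for 26.0% of all genes kept. It was −2.72 for SNX31, −1.23 for GRHL3, −1.13 for UPK1A and −0.17 for GATA3, and 0 for UPK3A.

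**Figure D2:**
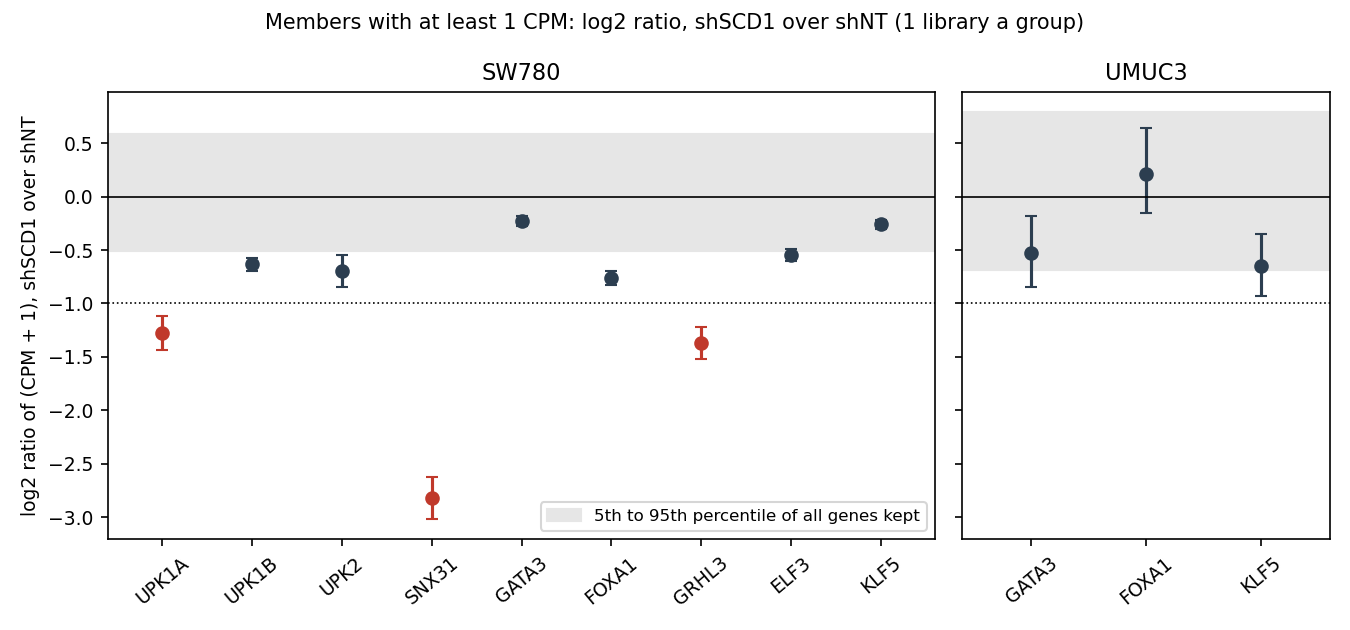
Log2 ratios of CPM plus 1, shSCD1 over shNT, of the members with at least 1 CPM, in SW780 (left, 9 genes) and UMUC3 (right, 3 genes). Bars are 95% intervals of counting error, grey bands hold the 5th to 95th percentile of all genes kept, the dotted line marks −1, and red points pass it: UPK1A, SNX31 and GRHL3, all in SW780.

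Levels of different members were compared per length. In SW780 shSCD1 the order was KLF5 (72.9 RPKM), GATA3 (69.4), UPK1B (57.1), FOXA1 (24.0), ELF3 (23.4), UPK2 (17.7), UPK1A (10.6), GRHL3 (4.35), SNX31 (2.27) and UPK3A (0.0745). In SW780 shNT it was UPK1B (88.8 RPKM), KLF5 (87.4), GATA3 (81.4), FOXA1 (40.8), ELF3 (34.3), UPK2 (29.3), UPK1A (26.6), SNX31 (17.9), GRHL3 (11.6) and UPK3A (0.223). UPK1B led in shNT and stood behind KLF5 and GATA3 in shSCD1, and SNX31 and GRHL3 changed places. Counting intervals of neighbours met for FOXA1 and ELF3 in shSCD1, and for UPK1B and KLF5 and for UPK2 and UPK1A in shNT. With the length of the longest coding transcript, an alternative added after seeing the data, KLF5 stood above UPK1B in shNT and ELF3 above FOXA1 in shSCD1.

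Members with the lower RPKM in SW780 shNT tended to have the lower ratios. Over the 9 kept, Spearman's rho of shNT RPKM against the log2 ratio was 0.80, where over 12831 genes kept with a length it was −0.11. The 9 genes share the same 2 libraries and the shNT value is in the ratio itself, so this is a description.

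UMUC3 gave a different picture of levels. UPK1B, SNX31 and GRHL3 had 0 reads in both libraries, which allows up to 3 reads or 0.0922 CPM in UMUC3 shSCD1 and 0.131 CPM in UMUC3 shNT. UPK1A had 0 reads in UMUC3 shSCD1 and 4 in UMUC3 shNT, and UPK2 had 1 in UMUC3 shSCD1 and 3 in UMUC3 shNT. These 5 members stayed under 1 CPM, and no difference was detectable for them at this depth.

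The 3 members kept in UMUC3 were factors with few reads. GATA3 had 62 reads or 1.91 CPM in UMUC3 shSCD1 and 73 reads or 3.20 CPM in UMUC3 shNT, 1.68-fold lower (1.18 to 2.39; log2 ratio −0.53). KLF5 had 109 reads or 3.35 CPM in UMUC3 shSCD1 and 133 reads or 5.83 CPM in UMUC3 shNT, 1.74-fold lower (1.34 to 2.26; log2 ratio −0.65). FOXA1 had 73 reads or 2.24 CPM in UMUC3 shSCD1 and 41 reads or 1.80 CPM in UMUC3 shNT. Its fold of 1.25 has an interval from 0.840 to 1.88, so the libraries did not differ beyond counting error.

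None of the 3 passed the size rule, where 2.18% of 14063 genes kept in UMUC3 were lower and 2.47% higher. Ratios were below 0 for 2 of 3, as for 45.7% of all genes kept. In the authors' deposited table GATA3 and KLF5 had GFOLD values of −0.25 and −0.45, and FOXA1 had 0; the value was below 0 for 34.9% of all genes kept. Levels in SW780 and UMUC3 come from tables made and scaled separately, so they were not tested against each other. Genes in both tables held 96.9% to 98.4% of the reads of every library.

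**Figure D3:**
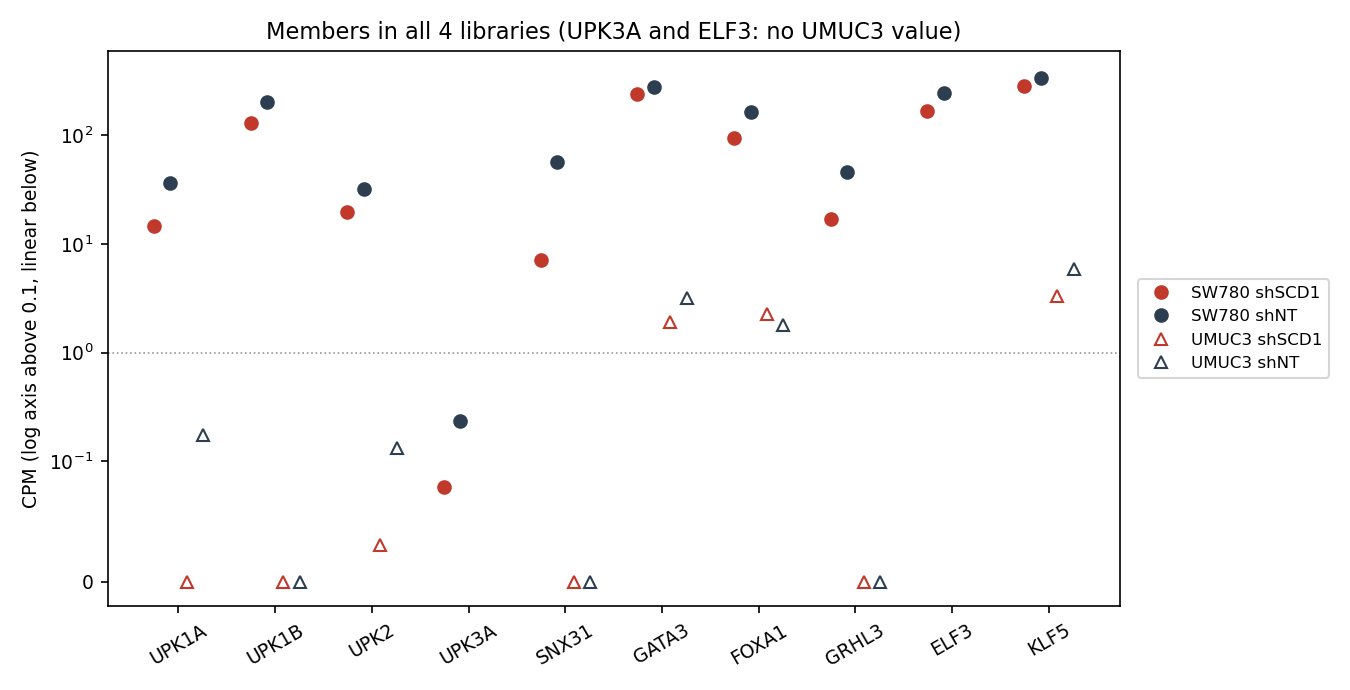
CPM of 10 genes in SW780 shSCD1 and SW780 shNT and of 8 genes in UMUC3 shSCD1 and UMUC3 shNT (without UPK3A and ELF3), 1 library each, on an axis that is logarithmic above 0.1 and linear below, with a dotted line at 1 CPM. Apart from UPK3A all SW780 points lie above 7 CPM, and no UMUC3 point lies above 5.83 CPM.

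An edgeR quasi-likelihood fit to all 4 libraries, blocked on cell line and left with 1 residual degree of freedom, addressed a change shared by the lines. Of 12654 genes tested it called none, or 0.0%, at an adjusted p of 0.05. Its unadjusted p was under 0.05 for 397 genes, or 3.14%, which is less than 5% of the genes tested. SNX31 had a fitted log2 fold change of −2.96, GRHL3 of −1.41 and UPK1A of −1.54. The edgeR Benjamini-Hochberg adjusted p was 0.979 for each of them, and for the other 5 members in the fit (UPK1B, UPK2, GATA3, FOXA1 and KLF5), whose fitted values lay between −0.85 and −0.37. For SCD the edgeR adjusted p was 0.764, although it was lower in both lines. With 0 reads in both UMUC3 libraries, the fits of SNX31, GRHL3 and UPK1B rest on SW780. Those of UPK1A (0 reads in UMUC3 shSCD1 and 4 in UMUC3 shNT) and UPK2 (1 in UMUC3 shSCD1 and 3 in UMUC3 shNT) rest almost wholly on it. DESeq2 on the same genes called 28 of the 12654, SNX31 (adjusted p = 0.00733) and SCD among them and no other member. A difference between the lines could not be tested with 1 library a group.

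The labelled cell type, human bladder cancer cell, was checked with marker lists. In SW780 all 9 genes of epithelial identity were above 1 CPM, and CDH1, which encodes E-cadherin, stood at 496 CPM in shSCD1 and 494 CPM in shNT. In UMUC3 5 of the 9 were in the table and none reached 1 CPM, with a sum of 0.522 CPM in shSCD1 and 1.23 CPM in shNT. VIM, the intermediate filament of mesenchymal cells, stood at 2254 CPM in UMUC3 shSCD1 and 2794 CPM in UMUC3 shNT. It made up most of the list of mesenchymal cells and fibroblasts, which summed to 2516 CPM in UMUC3 shSCD1 and 3055 CPM in UMUC3 shNT. ZEB1 stood at 242 CPM in shSCD1 and 233 CPM in shNT, and ZEB2 at 16.9 CPM in shSCD1 and 22.7 CPM in shNT. COL1A1, PDGFRB and ACTA2 reached 1.88 CPM at most, and COL1A2, COL3A1, LUM, PDGFRA and FAP stayed under 1 CPM in both UMUC3 libraries. In UMUC3 the 5 epithelial identity markers with a value were thus at or near 0, and EPCAM, CDH1, RAB25 and ST14 were not analysed. The keratin genes KRT18 and KRT8, on the list of luminal markers, were well above 1 CPM there. KRT18 stood at 170 CPM in UMUC3 shSCD1 and 372 CPM in UMUC3 shNT, and KRT8 at 78.3 CPM in UMUC3 shSCD1 and 148 CPM in UMUC3 shNT. The blood list summed to 13.3 CPM in SW780 shSCD1 and 18.0 CPM in SW780 shNT, and to 47.7 CPM in UMUC3 shSCD1 and 67.1 CPM in UMUC3 shNT. Most of it was CD68, which encodes a lysosomal protein, with 12.6 CPM in SW780 shSCD1, 17.4 CPM in SW780 shNT, 47.5 CPM in UMUC3 shSCD1 and 66.96 CPM in UMUC3 shNT. Endothelial genes summed to 5.64 CPM in SW780 shSCD1 and 5.52 CPM in SW780 shNT, and smooth muscle genes to 1.10 CPM in SW780 shSCD1 and 0.880 CPM in SW780 shNT. In UMUC3 endothelial genes summed to 0.154 CPM in shSCD1 and 0.833 CPM in shNT, and smooth muscle genes to 1.69 CPM in shSCD1 and 1.93 CPM in shNT.

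Several marker lists were set beside the members in SW780. Of all genes kept, ratios were below 0 for 51.5% in SW780 and 45.7% in UMUC3. By the size rule 1.06% were lower and 1.48% higher in SW780, and 2.18% lower in UMUC3. Epithelial identity had a median log2 ratio of 0.0063 with 6 of 9 genes above 0; its ratios ran from −0.34 to 0.46, and it summed to 1926 CPM in shSCD1 and 1743 CPM in shNT. The basal urothelium list had a median of −0.16, with 7 of 10 kept genes below 0 and none past the size rule; it summed to 3560 CPM in shSCD1 and 3538 CPM in shNT. Its genes with the most reads went opposite ways: KRT17, a basal keratin, stood at 1106 CPM in shSCD1 and 722 CPM in shNT (log2 ratio 0.61), and S100A2, a calcium-binding protein, at 630 CPM in shSCD1 and 849 CPM in shNT (−0.43). Of 11 genes of mesenchymal cells and fibroblasts 7 were kept, with a median of 0.94 and 6 above 0. VIM (10.998 CPM in shSCD1 and 0.616 CPM in shNT) and FAP, a fibroblast protease (37.1 CPM in shSCD1 and 9.39 CPM in shNT), passed the size rule as higher. The list summed to 329 CPM in shSCD1 and 204 CPM in shNT, and COL1A2 and PDGFRB were at 0 reads in both. Most of that sum was COL3A1, with 203 CPM in shSCD1 and 139 CPM in shNT (log2 ratio 0.55, not past the size rule). In UMUC3 all 5 kept basal genes were below 0 with a median of −0.60, COL17A1, a hemidesmosome collagen, being lower by the size rule (3.78 CPM in shSCD1 and 12.4 CPM in shNT). Of 6 kept mesenchymal genes 5 were below 0 there, with a median of −0.36. The part of these lists in the luminal results was not tested.

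Other luminal genes were described from lists drawn up beside the members, with earlier results of these data known. Their counts describe the libraries alone. Of all genes kept, ratios were below 0 for 51.5% in SW780 and 45.7% in UMUC3. Of 21 further luminal regulators 19 were kept in SW780, with 13 below 0, 6 above, none past the size rule and a median of −0.21. PPARG stood at 172 CPM in shSCD1 and 199 CPM in shNT, and its partner RXRA at 171 CPM in shSCD1 and 206 CPM in shNT. In UMUC3 PPARG was on the other side, with 10.1 CPM in shSCD1 and 6.14 CPM in shNT, 1.64-fold higher (1.34 to 2.02; log2 ratio 0.63). There 12 regulators were kept, 5 below 0 and 7 above, with none past the size rule and a median of 0.036. All genes kept in UMUC3 had a median of 0.037.

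Of 25 further luminal markers 24 were kept in SW780, with 21 below 0, 4 lower by the size rule, none higher and a median of −0.42. Of all genes kept in SW780, 51.5% were below 0, 1.06% lower by the size rule and 1.48% higher. This list, too, was chosen with earlier results of these data known. SPINK1, a trypsin inhibitor, had 26 reads in shSCD1 and 426 in shNT, 12.3-fold lower (8.26 to 19.0). FABP4, a fatty acid carrier, stood at 93.3 CPM in shSCD1 and 445 CPM in shNT, 4.77-fold lower (4.57 to 4.98). AGR2, a disulfide isomerase of secretory cells, stood at 7.44 CPM in shSCD1 and 29.9 CPM in shNT, 4.02-fold lower (3.44 to 4.72). PSCA, a surface antigen, stood at 94.4 CPM in shSCD1 and 233 CPM in shNT, 2.47-fold lower (2.36 to 2.58). In UMUC3 11 were kept, 8 of them below 0, with a median of −0.39. Of all genes kept there, 45.7% were below 0, 2.18% lower by the size rule and 2.47% higher. The keratin genes KRT18 (170 CPM in shSCD1 and 372 CPM in shNT) and KRT7 (1.26 CPM in shSCD1 and 4.43 CPM in shNT) and the surface glycoprotein gene CD24 (9.93 CPM in shSCD1 and 28.2 CPM in shNT) were lower by the size rule, and the epoxygenase gene CYP2J2 (3.20 CPM in shSCD1 and 0.614 CPM in shNT) was higher.

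Genes of vesicle traffic, through which umbrella cells deliver and recycle uroplakin plaques, were mostly near 0 on the ratio scale in SW780. Of 16 genes 15 were kept, with 10 below 0, as were 51.5% of all genes kept, and a median of −0.12. SYTL2, an effector of RAB27 proteins, alone passed the size rule, with 49.0 CPM in shSCD1 and 108 CPM in shNT, 2.21-fold lower (2.07 to 2.36). SNX17 and SNX27, the sorting nexins that share the FERM-like domain with SNX31, had log2 ratios of 0.06 and −0.14. In UMUC3 13 were kept with a median of 0.037; RAB27B (9.004 CPM in shSCD1 and 1.40 CPM in shNT) passed the rule as higher and the motor gene MYO5B (2.70 CPM in shSCD1 and 16.7 CPM in shNT) as lower.

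**Figure D4:**
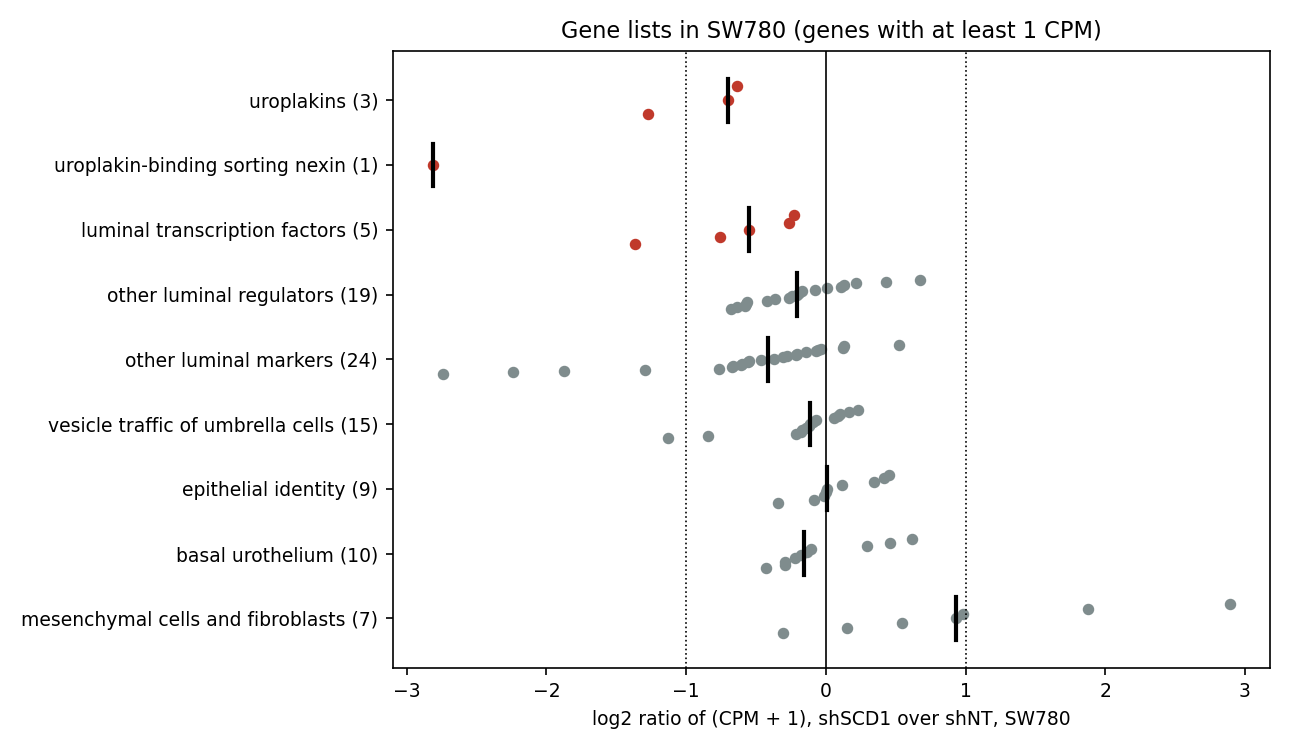
Log2 ratios of CPM plus 1, SW780 shSCD1 over SW780 shNT, by gene list; each point is 1 gene with at least 1 CPM, members in red, the number of genes in brackets, black bars at the medians and dotted lines at −1 and 1. The members' points all lie below 0. The other luminal regulators lie on both sides of it (13 below, 6 above), as do epithelial identity genes around a median of 0.0063. The list of other uroplakin genes, with UPK3B at −0.026, is not drawn.

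The members lie on different chromosomes for the most part (GRCh38, GENCODE 29). Among the uroplakins, UPK1A is at chr19:35666516-35678483, UPK1B at chr3:119173517-119205153, UPK2 at chr11:118925164-118958559 and UPK3A at chr22:45284982-45295874, each read along the plus strand. GRHL3 and ELF3 share a chromosome but lie far apart, at chr1:24319322-24364482 and chr1:202007945-202017188, also plus. GATA3 at chr10:8045378-8075203 and KLF5 at chr13:73054976-73077542 are plus as well, and FOXA1 at chr14:37589984-37596059 is minus, as is SNX31 at chr8:100572882-100663415. Exons of other genes cover 1.46% of the exonic bases of UPK1B, 4.88% of UPK2 and 0.402% of FOXA1, and none of UPK3A, GATA3, GRHL3 or KLF5.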

How the data were processed

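RNA of SW780 and UMUC3 cells (shSCD1 and shNT, 1 library each) was extracted with Trizol, prepared with a TruSeq kit and sequenced on the Illumina NovaSeq platform, per the labels' protocols. The submitters' processing notes name the build hg38. Aligner, counter, annotation and use of strand are not stated in the labels or headers.

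For each line the authors deposited 1 table. Per the file headers, it holds a GFOLD value (setting 0.01) and a log2 fold change, both second library over first, and an empirical FDR (a q-value). The FDR column held 1 throughout and was left aside. The deposited pair of columns headed RPKM is a signal, namely counts brought to 1 common total per column and not divided by gene length. Dividing by the step of each column gave whole reads within a tolerance of 0.1 reads for 100% of the values up to 20 reads and for at least 99.9% of all values above 0. A single read was worth 1.96 units in SW780 shSCD1, 1.47 in SW780 shNT, 1.54 in UMUC3 shSCD1 and 2.19 in UMUC3 shNT. CPM of these reads was used.

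Names came from the tables or, where blank, from Ensembl names, which matched 4993 of 5009 blanks in SW780 and 17246 of 17423 in UMUC3. A gene was kept in a line if 1 of its libraries reached 1 CPM. The interval of a fold came from the binomial share of its reads in shSCD1 (Clopper-Pearson, exact, 95%), that of a CPM from the Poisson distribution (exact). Both cover counting error only, and without molecular identifiers a read need not be a molecule of its own. The floor for 0 reads was 3 reads per library. Tests used edgeR 4.0.16 with TMM and pydeseq2 0.5.4 on genes present in both tables with at least 1 CPM in 2 libraries, with Benjamini-Hochberg adjustment over all genes tested. Steps were tested on simulated data first. Lengths and positions are from GENCODE 29.

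The members and the 10 other lists (115 genes) were chosen with earlier results of these data known. Named genes are all members, SCD, up to 4 genes a list and line past the size rule, and 1 or 2 genes of lists that check the cell type. PPARG, RXRA, SNX17, SNX27, CD68, KRT8, UPK3BL1 and the relatives under other observations were named outside this rule, after their values were seen. So were further genes of the epithelial identity and mesenchymal lists. Alternatives were other pseudocounts, filters, scalings and gene lengths, the authors' values, and DESeq2.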

Additional observations from a re-analysis of the deposited data

Results flagged for a closer look

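Of 51 genes of all lists kept in both lines, 25 had log2 ratios on opposite sides of 0, each on 1 pair of libraries per line, and no difference between lines was tested. Over all genes kept, ratios were below 0 for 51.5% in SW780 and 45.7% in UMUC3. The share of all genes with opposite signs was not computed, so the count of 25 is not a result about these lists. Given here are the 3 that passed the size rule in at least 1 line (RAB27B, VIM and UPK3BL2) and FOXA1, the only member among the 25. FOXA1 was at −0.76 in SW780 and 0.21 in UMUC3, where the interval of its fold included 1. RAB27B, which encodes a GTPase of vesicle docking, was at −0.84 in SW780 and 2.06 in UMUC3. VIM was at 2.89 in SW780 and −0.31 in UMUC3. UPK3BL2, a uroplakin-like gene with a near-identical copy, so that its reads are uncertain, was at −1.57 in SW780 (1.41 CPM in shSCD1 and 6.16 CPM in shNT) and 0.82 in UMUC3 (2.00 CPM in shSCD1 and 0.701 CPM in shNT). The like-named UPK3BL1 was below 0 in both lines, at −0.078 in SW780 (7.40 CPM in shSCD1 and 7.86 CPM in shNT) and −0.24 in UMUC3 (13.6 CPM in shSCD1 and 16.3 CPM in shNT).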

How the results depend on the processing

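In SW780 the same 3 members were lower and all 9 kept stayed below 0 under all 10 alternatives (pseudocount, filter, scaling, the authors' values); the members' median was −0.56 by the authors' GFOLD value. In UMUC3 the median of the kept members, −0.53, was −0.72 with a pseudocount of 0.1 CPM, −0.25 with 5 CPM, −0.067 without the filter, −0.65 with at least 5 CPM, −0.83 by the authors' log2 fold change and −0.25 by GFOLD; 4 members were below 0 without the filter and 1 with at least 5 CPM, as 8 and 1 were then kept. Over both lines edgeR called 1 gene without the filter, no member, and DESeq2 called 28, 2 of them among the members and SCD (SNX31 and SCD). With 0 reads of SNX31 in both UMUC3 libraries, its call rests on SW780 and cannot show a change shared by the lines. With a pseudocount of 5 CPM the log2 ratios in SW780 were −2.34 for SNX31, −1.20 for GRHL3 and −1.09 for UPK1A. No scaling alternative moved the median of all genes by over 0.1. Counts over all genes moved more. Genes lower in SW780, 136, numbered 228 with a pseudocount of 0.1 CPM, 65 with 5 CPM and 236 by the authors' log2 fold change, and those higher, 191, numbered 372, 77 and 396. In UMUC3 the 306 lower genes became 518, 98, 627 and, with at least 5 CPM, 204, and the 347 higher ones 717, 83, 639 and 222. Higher genes were 53.1% of those past the size rule in UMUC3 and 38.8% by GFOLD. In UMUC3 5 members had at most 4 reads, too few to show a difference, although its libraries were of a size like those of SW780.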

Other observations

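Relatives of the luminal factors, named after their values were seen, did not all follow them in SW780. Of the grainyhead-like genes, GRHL1 stood at 16.4 CPM in shSCD1 and 26.0 CPM in shNT (log2 ratio −0.64) and GRHL2 at 166 CPM in shSCD1 and 151 CPM in shNT (0.13). Among GATA factors, GATA2 stood at 62.6 CPM in shSCD1 and 100.7 CPM in shNT (−0.68), while GATA6 stood at 6.50 CPM in shSCD1 and 3.70 CPM in shNT (0.67). EHF, an epithelial ETS factor like ELF3, stood at 265 CPM in shSCD1 and 299 CPM in shNT (−0.17). None passed the size rule, and with 1 library a group there was no test within the line.

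UPK3B, a relative of UPK3A that can also pair with UPK1B, stood at 91.6 CPM in SW780 shSCD1 and 93.3 CPM in SW780 shNT (log2 ratio −0.026). Unlike UPK3A, it was thus well above 1 CPM in SW780, with nearly equal levels in both libraries; in UMUC3 it had 3 reads in shSCD1 and 0 in shNT.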
